A study of Aspergillus nidulans with 24 samples.

Results

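The 7 genes described here, alcR, alcA, alcM, alcS, alcB, alcC and aldA, belong to ethanol utilisation in the filamentous fungus Aspergillus nidulans. They were taken by symbol from a table of 8728 genes, and all 7 were found and had values in every group. The table holds the authors' mean normalized count of each gene in 8 groups of 3 RNA-seq libraries, made from mycelium grown for 9 to 11 hours at 37 °C. A mutant strain and a wild type were each grown on 2 carbon sources, 0.1% fructose (not repressing) or 1% glucose (repressing), combined with 2 nitrogen sources, 5 mM urea (not repressing) or 10 mM ammonium tartrate (repressing). The media are named below by their sources, as fructose-urea, fructose-ammonium, glucose-urea and glucose-ammonium. The mutant carried areB{delta}::A.f. pyrG, in which the Aspergillus fumigatus pyrG gene marks the deletion, with pyrG89, argB2, nkuA{delta}::argB, pabaB22 and riboB2. The wild type carried biA1. The strains therefore differed at more loci than areB, in all 4 media, and the part of areB cannot be told apart from that of the other loci.

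Ethanol is oxidised to acetaldehyde by an alcohol dehydrogenase and acetaldehyde to acetate by an aldehyde dehydrogenase, after which acetate is activated to acetyl-CoA. In A. nidulans the zinc cluster protein AlcR switches genes of this pathway such as alcA and aldA on, its own gene included, when an inducer such as acetaldehyde is present. The repressor CreA holds such genes down on glucose. This scheme is not taken to hold for each gene described here, and alcC had its higher means on glucose. AreB is a GATA factor known as a negative regulator of nitrogen catabolism. Among the genes described, alcR encodes the activator, alcA, alcB and alcC encode alcohol dehydrogenases I, II and III, and aldA encodes the aldehyde dehydrogenase. The gene alcS encodes a membrane protein of the GPR1/FUN34/YaaH family, and the function of the alcM product is not known. The labels name no ethanol in any medium.

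The targeted gene behaved as labelled: areB was listed at 0 in all 4 deletion groups and at 67.9 to 93.9 in the wild type groups, and nkuA was listed at 0 in the deletion groups and at 103 to 137 in the wild type. The group means summed to between 2.75174e+06 and 3.01333e+06 normalized counts over all genes. Totals of single libraries were not analysed here, so the spread between libraries was recovered from the authors' deposited fold changes and adjusted p-values as a dispersion per gene. For the median gene this gave a coefficient of variation between libraries, beyond counting error, of 42.3%. The ethanol genes had higher values: 59.9% for alcS, 69.9% for alcR, 75.5% for alcA, 84.8% for aldA, 91.7% for alcC, 95.3% for alcM and 140% for alcB. Counting error adds to these values, most of all at the low counts of alcM and alcS. Each standard error (SE) below comes from that dispersion and the counting error, with 3 libraries a group.

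The activator gene alcR followed the carbon source in both strains. In the wild type its mean normalized count was 141 on fructose-urea, 126 on fructose-ammonium, 10.5 on glucose-urea and 10.6 on glucose-ammonium. The deletion strain had 193, 177, 13.0 and 9.58 in the same order of media. All 4 fructose means lay above all 4 glucose means, and ordered by level the step between the lowest fructose group and the highest glucose group, 3.18 ± 0.82 (log2, SE), was the single one of 7 steps beyond 1.96 SE, so neighbouring groups on either side of it did not differ beyond their spread. These steps and the contrasts within a strain are log2 ratios of the authors' means plus a pseudocount of 1, with the recovered SE. The contrasts within a strain have a 2-sided normal test and Benjamini-Hochberg adjustment over 8639 genes. The steps, here and for the genes below, come from sorting the same means, so the mark of 1.96 SE is a description and not a test. Small steps between neighbours do not show that groups further apart are alike.

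Of the 3 alcohol dehydrogenase genes, alcA had the widest range of levels. Its mean normalized count in the wild type was 157 on fructose-urea, 79.0 on fructose-ammonium, 4.60 on glucose-urea and 41.0 on glucose-ammonium. In the deletion strain the corresponding means were 953, 716, 67.1 and 108. The deletion strain was higher in each medium, and the highest group mean was 207 times the lowest. In order of level, the steps beyond 1.96 SE were that from the deletion strain on fructose-ammonium down to the wild type on fructose-urea, 2.19 ± 0.89 (log2, SE), and that down to the wild type on glucose-urea, 2.91 ± 0.87.

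The levels of the other alcohol dehydrogenase genes ran in opposite directions. The means of alcB in the wild type were 584 and 702 on fructose with urea and with ammonium, and 9.44 and 15.8 on glucose. In the deletion strain they were 348, 463, 12.4 and 12.8. Like alcR, alcB was split by carbon source, with a single step beyond 1.96 SE, between 348 and 15.8 (4.37 ± 1.61 on the log2 scale). The gene alcC, known from growth at low oxygen, was instead highest on glucose: the wild type means were 1245, 2481, 4611 and 6947 in the order used above, and the deletion means 1395, 2241, 3573 and 4909.8. None of the 7 steps in its order of levels exceeded 1.96 SE, the largest being 0.68 (log2).

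The aldehyde dehydrogenase gene aldA was high on fructose in both strains. Its means were 2766, 2506, 109.5 and 116 in the wild type and 1546, 1607, 197 and 192 in the deletion strain. The deletion strain was lower on fructose and higher on glucose, but the only step in the order beyond 1.96 SE was the one between the carbon sources, 2.96 ± 1.00 (log2, SE).

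The cluster genes alcM and alcS were at low counts outside the deletion strain on fructose. The means of alcM were 0.715, 0.990, 0.201 and 2.64 in the wild type, and 17.6, 8.10, 0.302 and 1.98 in the deletion strain. Those of alcS were 1.62, 4.96, 0.602 and 2.78 in the wild type, and 26.1, 13.9, 3.20 and 3.41 in the deletion strain. For both, the deletion strain on fructose-urea was the highest group and the wild type on glucose-urea the lowest. A mean of 0.715 is 2.15 normalized counts summed over 3 libraries, so ratios to the lowest groups are poorly fixed. No neighbouring step in the order of levels exceeded 1.96 SE for alcM, nor for alcS.

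**Figure D1:**
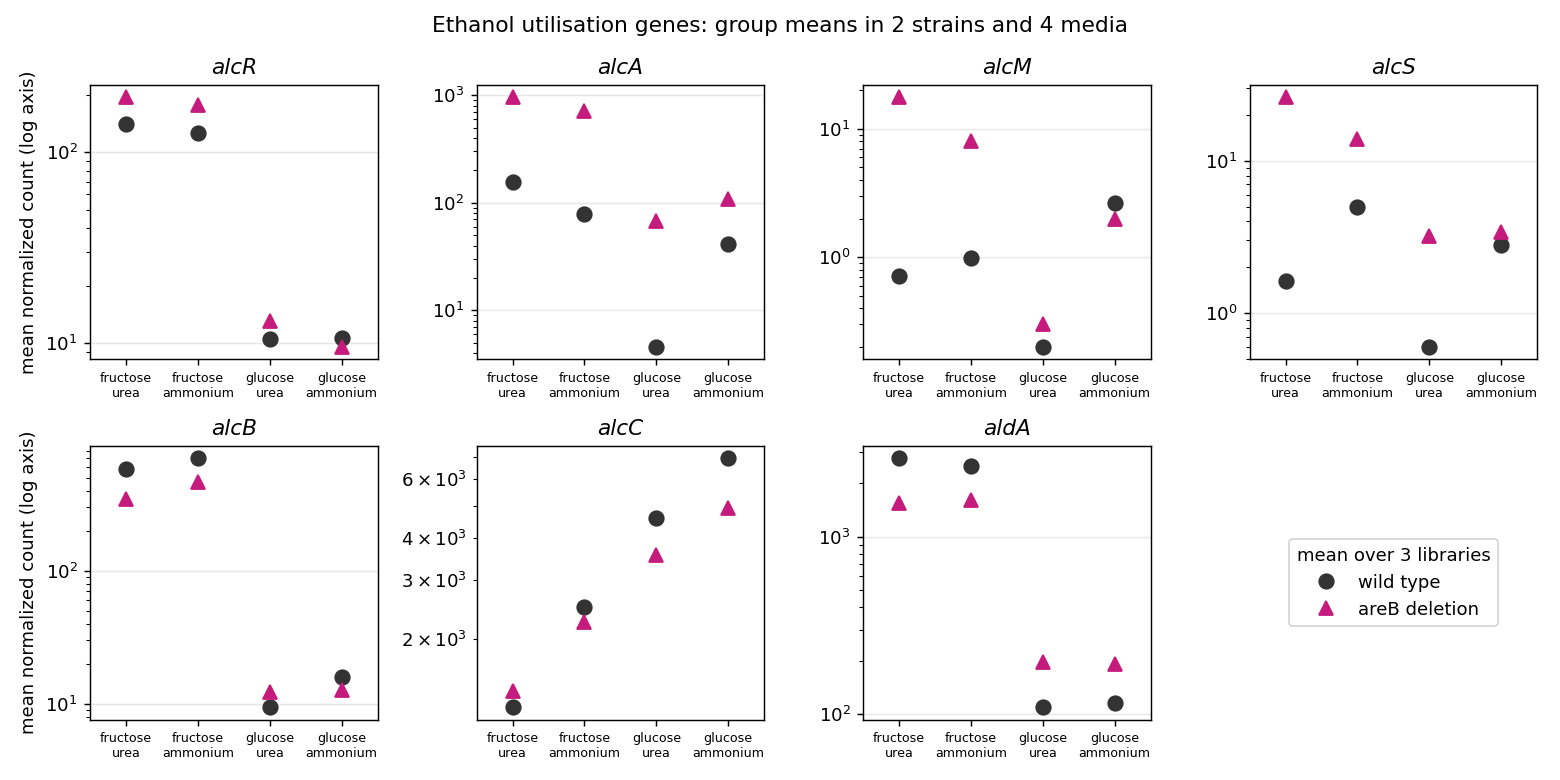
Mean normalized count (log axis) of each of the 7 genes in 4 media; circles are the wild type and triangles the areB deletion strain, each the authors' mean over 3 libraries, with no error drawn. Panels have separate axes: alcR, alcB and aldA separate by carbon source, alcC runs from 1245 up to 6947 towards glucose, and alcA lies higher in the deletion strain in all 4 media.

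The comparison of the strains within a medium asks what the areB deletion strain changes. In the authors' deposited table, alcM and alcS rose in the deletion strain on fructose-urea, alcA rose on fructose-ammonium and again on glucose-urea, and no member fell. The authors' deposited table thus calls 2 of 7 members on fructose-urea, against 2.22% of all 8639 genes with an adjusted p under 0.05 (0.833% higher in the deletion strain). It calls 1 of 7 on fructose-ammonium (2.51%, and 1.12% higher), 1 of 7 on glucose-urea (1.88%, and 1.39% higher) and 0 of 7 on glucose-ammonium (1.91%, and 1.06% higher), where no member had an unadjusted p under 0.05 and the test of the ratio of means also called 0. The median log2 fold change of the members in the authors' deposited table was 0.39, 0.41, 0.21 and -0.05 in the same order of media, beside -0.03, -0.03, 0 and -0.02 over all genes.

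For alcA, the authors' deposited table gives a log2 fold change of 2.52 ± 0.68 (recovered SE) on fructose-ammonium, with a DESeq2 adjusted p of 0.015. On glucose-urea the value in the authors' deposited table is 2.37 ± 0.69 (adjusted p 0.036), which is a fold change of 5.18, while the means themselves, 67.1 and 4.60, have a log2 ratio of 3.60 with the pseudocount. For these members the deposited fold changes lie nearer to 1 than the ratios of the means, as a moderated estimate does. On fructose-urea alcA stood at 2.11 ± 0.68 and missed the threshold, with an adjusted p of 0.072 in the authors' deposited table. On glucose-ammonium its value in the authors' deposited table was 1.03 ± 0.69 (adjusted p 0.97), with a 95% interval from -0.32 to 2.37.

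The lowly expressed cluster genes had the highest deposited fold changes of the members. For alcS on fructose-urea, the authors' deposited table gives a log2 fold change of 3.18 ± 0.68, a fold of 9.08, with an adjusted p of 0.00089. For alcM in that medium the authors' deposited table gives 2.89 ± 0.79, a fold of 7.44, with an adjusted p of 0.016. The means of alcM, 17.6 against 0.715, have a ratio of 24.6 with an exact 95% interval from 6.98 to 225 that covers counting error only. On fructose-ammonium the values in the authors' deposited table were 1.29 ± 0.66 for alcS (adjusted p 0.41) and 1.83 ± 0.79 for alcM (adjusted p 0.25). On glucose, the values in the authors' deposited table were 1.17 with urea and 0.13 with ammonium for alcS, and 0.10 and -0.32 for alcM, with adjusted p-values from 0.93 to 1. The recovered deviates were also divided by their robust SD over all genes, an alternative chosen after seeing the data. The calls of alcM on fructose-urea and of alcA on fructose-ammonium were then lost, while that of alcS on fructose-urea held. On glucose-urea that SD was 0.79, below 1, so the division enlarges each deviate and the call of alcA could not be lost.

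The activator gene and the remaining enzyme genes did not pass the test in any medium. The log2 fold changes of alcR in the authors' deposited table were 0.39, 0.41, 0.21 and -0.12, with adjusted p-values of 0.92, 0.90, 1 and 1. On fructose-urea its 95% interval ran from -0.90 to 1.67, which includes a doubling. That interval rests on the moderated SE of 0.66, while the SE of the ratio of means was 0.82. The interval of alcA in that medium, 0.77 to 3.45, overlaps it, and the genes were not tested against each other. Values in the authors' deposited table for alcB were -0.46, -0.38, 0.06 and -0.05, and for alcC 0.10, -0.10, -0.26 and -0.37, with adjusted p-values from 0.93 to 1. For aldA the authors' deposited table gives -0.66 and -0.50 on fructose with urea and with ammonium, and 0.53 and 0.45 on glucose, with adjusted p-values of 0.85, 0.88, 1 and 1. The interval of aldA on fructose-urea ran from -2.07 to 0.76.

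**Figure D2:**
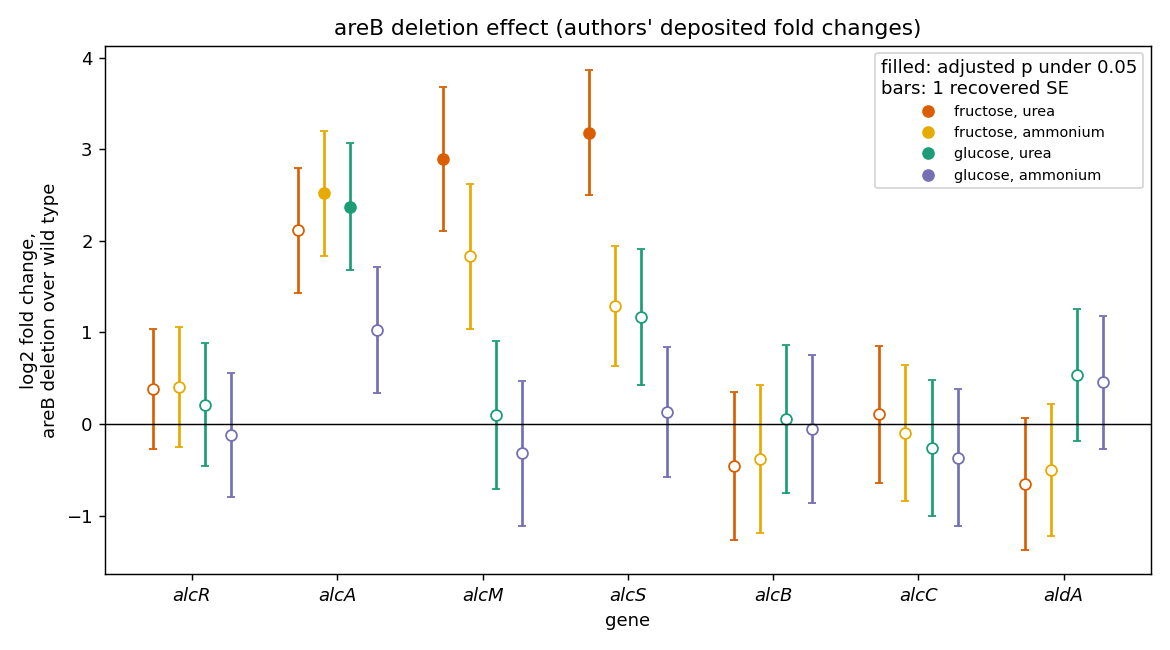
Log2 fold change of the areB deletion strain over the wild type for each of the 7 genes (horizontal axis) in 4 media (colours), as deposited by the authors, with bars of 1 recovered SE; filled points have an adjusted p under 0.05. The filled points are alcM and alcS on fructose-urea, and alcA on fructose-ammonium and on glucose-urea, between 2.37 and 3.18.

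A call in 1 medium and not in another does not show that the strains differed more in the first, so the difference of the strain effects was tested for the 4 pairs of media that differ in 1 source. No gene of 8639 passed after Benjamini-Hochberg adjustment in any pair (0.0% called), members included, while 62, 65, 259 and 121 genes had an unadjusted p under 0.05. Each of these counts is below a share of 0.05 of the 8639 genes, the share expected if no gene differed. The test was thus conservative, and the lack of calls does not show that the strain effects were alike. Among the members, the strain effect on alcM was 3.32 ± 1.10 (log2, SE) larger on fructose than on glucose when urea was the nitrogen source, with an unadjusted p of 0.0026 and an adjusted p of 1.00. The strain effect on alcS was 1.98 ± 0.99 larger on fructose than on glucose with urea (unadjusted p 0.046) and 2.05 ± 1.02 larger with urea than with ammonium on fructose (unadjusted p 0.045). For alcA the strain effect with urea differed between fructose and glucose by -1.01 ± 1.25 (unadjusted p 0.42), and on glucose it was 2.23 ± 1.25 larger with urea than with ammonium (unadjusted p 0.074). For aldA, whose strain effect changed sign between carbon sources, the difference with urea was -1.68 ± 1.41 (unadjusted p 0.23), with a 95% interval from -4.45 to 1.09.

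Fructose against glucose within a strain bears on carbon repression, but it compares 0.1% fructose with 1% glucose. The kind of sugar and its amount cannot be told apart, so neither can relief of repression and a lower carbon supply. Members that passed the test were all higher on fructose. In the wild type with urea they were alcR, alcA, alcB and aldA, 4 of 7, against 10.2% of all genes called in either direction and 8.81% higher on fructose. In the wild type with ammonium they were alcR, alcB and aldA, 3 of 7, against 5.63% and 4.39%. In the deletion strain with urea they were alcR, alcA, alcM and alcS, 4 of 7, against 1.27% and 0.88%. With ammonium the deletion strain left alcR alone, 1 of 7, against 1.39% and 0.961%. The median log2 ratio of the members was 3.62, 0.93, 3.80 and 2.72 in these 4 contrasts, and that of all genes was 0.10, 0.04, 0.05 and 0.04. With the dispersion doubled, alcA in the wild type with urea was the only call left in these 4 contrasts.

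By this normal test, alcR was called in all 4 contrasts. Its log2 ratio was 3.62 ± 0.82 (SE) in the wild type with urea (adjusted p 0.00079), a ratio of means of 13.4. With ammonium it was 3.45 ± 0.82 in the wild type (adjusted p 0.0027). The deletion strain gave 3.80 ± 0.82 with urea (adjusted p 0.0017) and 4.08 ± 0.82 with ammonium (adjusted p 0.00031). The 4 values lay within 0.62 of each other, less than 1 SE.

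The enzyme genes alcB and aldA had large ratios with wide errors. In the wild type alcB was 5.81 ± 1.59 with urea and 5.38 ± 1.62 with ammonium (adjusted p 0.0073 and 0.024, normal test), and aldA was 4.65 ± 1.00 and 4.42 ± 1.00 (adjusted p 0.00033 and 0.0013). In the deletion strain alcB was 4.70 ± 1.61 and 5.08 ± 1.61, and aldA 2.96 ± 1.00 and 3.06 ± 1.00, with adjusted p-values of 0.12, 0.075, 0.12 and 0.087. Each of these had an unadjusted p under 0.05, and no difference between the strains in this ratio passed the test described above.

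The gene alcA passed with urea in both strains and with ammonium in neither. In the wild type its log2 ratio was 4.81 ± 0.87 with urea (adjusted p 1e-05, normal test), a ratio of means of 34.0, and 0.93 ± 0.89 with ammonium (adjusted p 0.63), a ratio of 1.93. The difference between these, 3.88 ± 1.25, was tested after the values had been seen and did not pass (unadjusted p 0.0018, adjusted p 0.83); 4 of all genes did (0.0463%). In the deletion strain it was 3.81 ± 0.89 with urea (adjusted p 0.0051) and 2.72 ± 0.89 with ammonium (adjusted p 0.088), a difference of 1.09 ± 1.26 that did not pass either (unadjusted p 0.39, with 0.0116% of all genes called). The cluster genes passed in the deletion strain with urea, at 3.84 ± 0.88 for alcM (adjusted p 0.0041) and 2.69 ± 0.73 for alcS (adjusted p 0.026). With a pseudocount of 5 the ratio of alcM was 2.09 and its call was lost, and a filter on genes with a mean of at least 10 leaves both genes out of the test. The lower mean of alcM in that contrast, 0.302, is about 1 count over 3 libraries, and its ratio of 58.3 has a counting interval from 9.11 to 2132. In the wild type these log2 ratios were 0.51 ± 0.67 with urea and -0.87 ± 0.89 with ammonium for alcM, and 0.71 ± 0.68 and 0.66 ± 0.73 for alcS, none of which passed.

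The gene alcC had a negative log2 ratio in all 4 contrasts, -1.89 ± 1.08 and -1.49 ± 1.08 in the wild type with urea and with ammonium and -1.36 ± 1.08 and -1.13 ± 1.08 in the deletion strain. None passed the test (adjusted p 0.25, 0.49, 0.70 and 0.80, normal test with Benjamini-Hochberg adjustment). The means on glucose were 3.70 times those on fructose in the wild type with urea, with a 95% interval of the log2 ratio from -4.00 to 0.23.

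**Figure D3:**
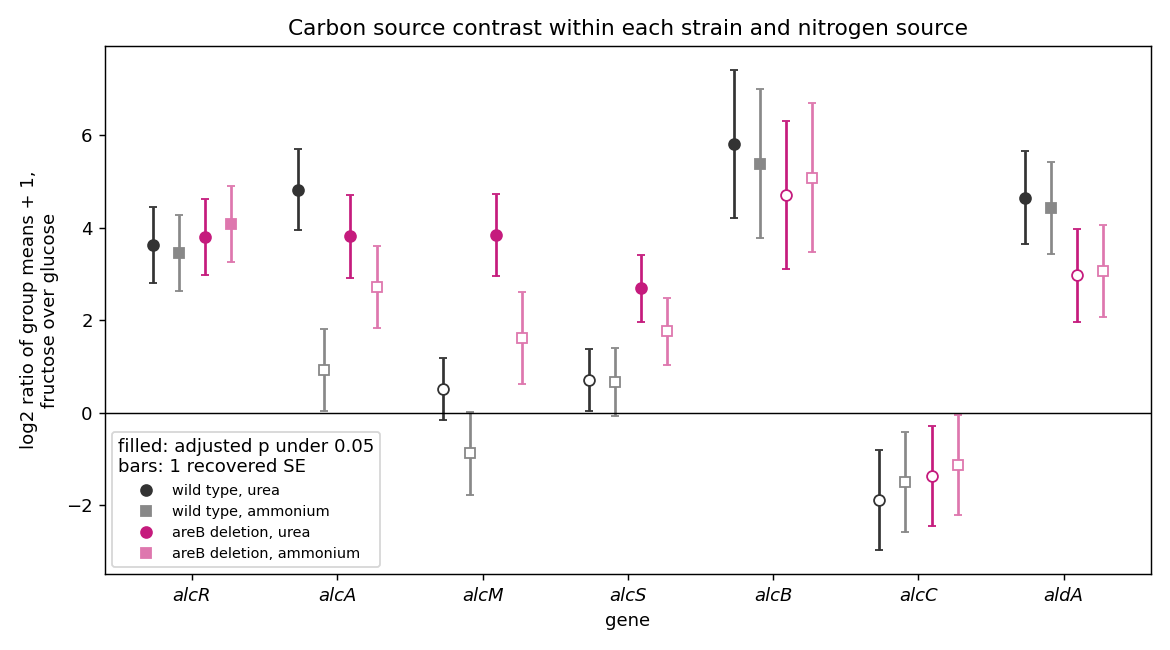
Log2 ratio of mean normalized counts plus 1, fructose over glucose, for each of the 7 genes in 2 strains (grey, wild type; pink, deletion) and 2 nitrogen sources (circles, urea; squares, ammonium), with bars of 1 recovered SE; filled points have an adjusted p under 0.05. The 4 points of alcR are filled and lie between 3.45 and 4.08, alcC lies below 0, and the wild type points of alcA are at 4.81 with urea and 0.93 with ammonium.

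Urea against ammonium within a strain bears on nitrogen repression, but the ammonium was given as its tartrate and at another concentration than the urea. The nitrogen source, its amount and the tartrate cannot be told apart. No member passed in any of the 4 contrasts. Over the whole table, 0.266% of genes passed in the wild type on fructose, 0.232% in the wild type on glucose, 0.15% in the deletion strain on fructose and 0.197% in the deletion strain on glucose. At an unadjusted p under 0.05 the number of members was 0, 2, 0 and 0, and the share of all genes at that threshold is not given here. Those 2 were alcA, lower with urea than with ammonium by a log2 ratio of -2.91 ± 0.87 on glucose in the wild type (unadjusted p 0.00087, adjusted p 0.17), and alcM, at -1.60 ± 0.80 (unadjusted p 0.045, adjusted p 1). All 7 members had negative ratios in that contrast, as did 4819 of 8639 genes, and the ratio of alcR was only -0.01. The median of the members was -0.69, beside -0.05 over all genes. On fructose alcA lay the other way in the wild type, at 0.98 ± 0.89. The ratios of alcR were between -0.01 and 0.40, and those of aldA between -0.09 and 0.14, in all 4 contrasts. For alcR in the wild type on fructose the 95% interval was -1.46 to 1.77.

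The genes alcS, alcM, alcA and alcR stand next to each other, in this sequence, in the RefSeq gene order of assembly ASM1142v1, used here for neighbours only because no source used here names the build of the files. The cluster genes alcU and alcP, both from a list of 7 other ethanol genes, flank them, and the other 5 symbols of that list (alcO, alcD, alcE, alcF and alcX) were not analysed here. The deposited fold changes were uneven along the cluster, though its genes were not tested against each other. In the authors' deposited table the log2 fold changes on fructose-urea were -0.15 for alcU, 3.18 for alcS, 2.89 for alcM, 2.11 for alcA, 0.39 for alcR and -0.23 for alcP. The authors' deposited table calls neither alcU nor alcP in the 4 media (adjusted p 0.84 to 1). The means of alcP were 84.7, 101, 1.06 and 2.77 in the wild type, and its log2 ratio of fructose over glucose with urea was 5.38 ± 1.47 (adjusted p 0.0071, normal test). The means of alcU were 56.8, 40.7, 19.1 and 24.6 in the wild type and 49.9, 60.7, 18.9 and 26.6 in the deletion strain, with no contrast called.

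**Figure D4:**
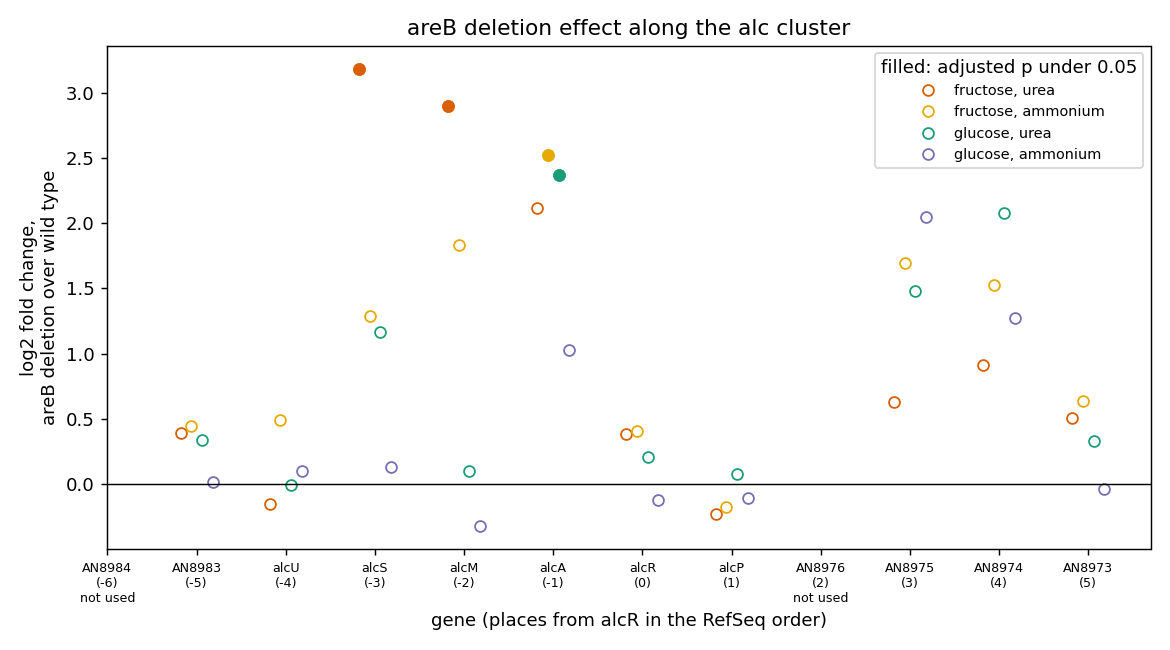
Log2 fold change of the areB deletion strain over the wild type, as deposited by the authors, for the genes up to 5 places beyond alcR on one side and 6 on the other in the RefSeq order (horizontal axis), in 4 media (colours; filled, adjusted p under 0.05). The filled points are those of alcS, alcM and alcA; alcR and alcP beside them lie between -0.23 and 0.41, and the positions marked as not used have no values here.

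Over the 8 group means alcR, alcB and aldA ran closely together. Pearson's r of log2(mean + 1) was 0.98 between alcR and alcB, 0.96 between alcR and aldA and 0.99 between alcB and aldA. It was 0.91 between alcM and alcS, 0.88 between alcA and alcS and 0.81 between alcA and alcM, but 0.74 between alcR and alcA, and -0.90 between alcR and alcC. These are descriptions over 8 groups that share 4 media and 2 strains, in a table where many genes follow the carbon source. By the same measure, the genes most like alcA among those with a highest group mean of at least 20 were AN6963 (r 0.990), AN7437 (0.985), AN7454 (0.973), AN5993 (0.972) and AN8972 (0.971). AN7437 had a highest mean only 1.22 times its lowest. Most like alcR were AN2958 (r 0.998), AN3221 (0.996), AN8912 (0.995), AN6747 (0.995) and AN10898 (0.994). Both rankings rest on Pearson's r: by Spearman's rho, 0 of the 5 genes named were among the 5 most like alcA, and likewise 0 of 5 for alcR. AN2958 and AN3221 encode predicted membrane transport proteins, and AN6747 a predicted zinc binding transcription factor.

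Of the genes like alcA, AN8972, a predicted membrane transporter, lies 6 places from alcR in the RefSeq order. Its means were 82.6, 34.0, 3.46 and 9.22 in the wild type and 254, 277, 39.0 and 31.3 in the deletion strain. In the authors' deposited table its log2 fold changes were 1.50 ± 0.45, 2.79 ± 0.46 and 2.89 ± 0.53 on fructose-urea, fructose-ammonium and glucose-urea, with adjusted p-values of 0.042, 5.9e-07 and 7.4e-06, and on glucose-ammonium 1.50 ± 0.50 (adjusted p 0.11). It was named for its likeness to alcA over the same means, so these values are a description.

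Several genes of acetate use and gluconeogenesis rose on fructose in the wild type. Of 14 listed genes of acetate use and gluconeogenesis 13 were measured, and the authors' deposited table calls none of them between the strains in the 4 media, where it calls 1.88% to 2.51% of all genes, so that a count of 0 among 13 is near the background. There the median log2 fold change was -0.50, -0.47, 0.13 and -0.09. On fructose against glucose 9 of 13 rose in the wild type with urea and 6 with ammonium, and 2 rose in each contrast of the deletion strain, while none fell. Over all genes, 8.81% and 4.39% rose in the wild type and 0.88% and 0.961% in the deletion strain. Those that rose in the wild type with urea include acuF, which encodes phosphoenolpyruvate carboxykinase, at 5.73 ± 0.89 (adjusted p 1e-07, normal test), facA, which encodes acetyl-CoA synthase, at 2.60 ± 0.76 (adjusted p 0.013), and acuE, which encodes malate synthase, at 2.94 ± 0.96 (adjusted p 0.029). The pair called in the deletion strain, acuL and acuG, was the same with both nitrogen sources. The medians in the 4 carbon contrasts were 1.99 and 1.58 in the wild type and 0.95 and 0.84 in the deletion strain.

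Of 5 carbon repression genes, creA, which encodes the repressor itself, was the 1 that passed on fructose against glucose in the wild type, at 2.81 ± 0.79 with urea and 2.71 ± 0.79 with ammonium (adjusted p 0.0095 and 0.020, normal test). Its means on fructose were 302 and 411 in the wild type and 88.2 and 72.9 in the deletion strain. No gene of this list passed between the strains in the authors' deposited table, which calls 1.88% to 2.51% of all genes in a medium. On fructose-ammonium creA narrowly missed the threshold there, at -2.04 ± 0.64 (log2, recovered SE) with a DESeq2 adjusted p of 0.058. The 95% interval of that value ran from -3.30 to -0.78. In the other media creA stood at -1.45 on fructose-urea (adjusted p 0.30), 0.47 on glucose-urea and -0.23 on glucose-ammonium. Of the 2 pyruvate decarboxylase genes measured, pdcB rose on fructose in the wild type with either nitrogen source, at 4.57 ± 1.30 in both (adjusted p 0.010 and 0.016, normal test), whereas pdcA, which like alcC had its higher means on glucose, did not pass. The wild type means of pdcA were 5632 and 8861 on fructose and 25794 and 34087 on glucose.

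Other genes with alcohol dehydrogenase in their description numbered 10, among them amdA, a regulator whose description names alcB as a target. AN2351, a putative zinc-containing alcohol dehydrogenase, was the only one of the 10 called between the strains, on fructose-ammonium, at 2.56 ± 0.51 with an adjusted p of 0.00027 in the authors' deposited table. AN2860, an alcohol dehydrogenase with a predicted role in fermentation, had log2 ratios of fructose over glucose between 7.14 and 7.66 and was called in all 4 contrasts, joined by AN2351 in the deletion strain with ammonium (2.27 ± 0.51, adjusted p 0.0021, normal test). Of 13 other genes with aldehyde dehydrogenase in their description 12 were tested, and none passed between the strains in the authors' deposited table. That table calls 1.88% to 2.51% of all genes in the 4 media, so the counts between the strains in both lists are small ones near the background. AN3591 was the 1 that passed for carbon source in the wild type, at 4.66 ± 1.24 with urea and 4.47 ± 1.25 with ammonium (adjusted p 0.0058 and 0.014, normal test), and AN4050 passed in the deletion strain with ammonium at 1.80 ± 0.52 (adjusted p 0.047). Over all genes, 8.81% and 4.39% rose on fructose in the wild type (urea, ammonium) and 0.88% and 0.961% in the deletion strain. A count of 1 in either list in the wild type is near that background.

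**Figure D5:**
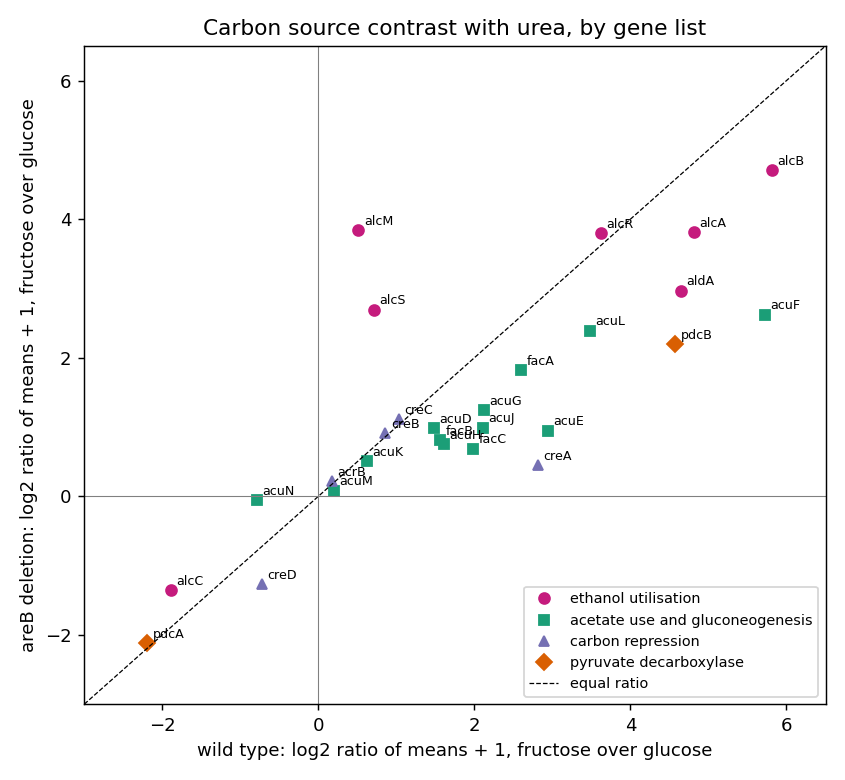
Log2 ratio of mean normalized counts plus 1, fructose over glucose with urea, in the wild type (horizontal axis) and the deletion strain (vertical axis), for the 7 ethanol genes and 3 lists of related genes; the dashed line marks equal ratios. The genes alcM (0.51 and 3.84) and alcS (0.71 and 2.69) lie above the line, acuF (5.73 and 2.62) and creA (2.81 and 0.45) below it, and alcR close to it. No difference between the strains passed its test, which called no gene at all and so does not show equal ratios.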

How the data were processed

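RNA from mycelium was depleted of ribosomal RNA, and libraries were amplified over 14 cycles and sequenced as paired ends, per the labels' protocols. The submitters' processing notes name HTSeq 0.9.1 and DESeq2 1.16.1, besides Trimmomatic, FastQC and GATK; no source used here gives the aligner, strand setting or build. The deposited values used were, per the file headers, a mean normalized count signal per group, a fold ratio of deletion over wild type per medium, and its adjusted p-value, which 8639 genes have. Antisense or overlapping transcripts may share reads. The labels call the 3 libraries of a group biological replicates.

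With no values per library, a dispersion per gene was recovered from the deposited fold changes and p-values under a negative binomial model of 8 group means with a normal prior on group effects (variance 1.3, log2 scale). The refitted log2 fold changes differed from the deposited ones by a median of 0.0047 over 34556 values. The prior variance had been chosen on 1500 genes to make this difference small, so it is partly built in. Dispersions recovered from fold changes and from deviates differed by a median of 0.11 (log2), with a 90% quantile of 1.23. Recovered deviates had a robust SD of 1.14 and 1.19 on fructose (urea, ammonium) and 0.79 and 0.81 on glucose, where 1 is expected if no gene differs. Contrasts within a strain used log2 ratios (pseudocount 1), 2-sided normal tests and Benjamini-Hochberg adjustment with numpy 2.4.6 and scipy 1.17.1. The procedure was also run on counts simulated from the same model with the recovered dispersions, with no outcome given here. That run cannot test the model itself, and it left out alcM, whose mean over the groups was 4.07. The threshold was an adjusted p under 0.05. Genes named are the members, the listed genes that passed or have the highest means, and the 5 most like alcA and alcR. Levels are not compared between genes, since no lengths were used. Alternatives were other thresholds, pseudocounts, scalings and dispersions. Members and lists were chosen with earlier results of these data known.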

Additional observations from a re-analysis of the deposited data

How the results depend on the processing

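With an adjusted p under 0.01, members called between the strains numbered 1 on fructose-urea (alcS), 0 on fructose-ammonium and 0 on glucose-urea. With the deviates divided by their robust SD, chosen after seeing the data, they numbered 1 and 0 on fructose with urea and with ammonium, so the calls of alcM on fructose-urea and alcA on fructose-ammonium were lost. With the dispersion doubled, members called for carbon source numbered 1 (alcA) and 0 in the wild type (urea, ammonium) and 0 and 0 in the deletion strain. Among genes with a mean of at least 10 they numbered 2 in the deletion strain with urea, since alcM and alcS have lower means. By fold alone (log2 of at least 2), 6 members counted in the deletion strain with urea and 4 with ammonium for carbon, and 1 in the wild type on glucose for nitrogen. The share of all genes by fold alone is not given here, so these counts have no background to be read against. With pseudocount 5, alcM in the deletion strain with urea had a log2 ratio of 2.09 and was no longer called. Centred on the median of all genes, the nitrogen ratio of alcR in the wild type on glucose turned to 0.023. The genes most like alcA and alcR shared 0 of 5 with those by Spearman's rho. With an adjusted p under 0.1, alcA was called on fructose-urea as well, 3 members in all. The unmoderated ratio of alcA on glucose-urea was 3.60. The other alternatives, which include a test of the unmoderated ratios also chosen after seeing the data, called the members reported. No paired analysis was possible because the table holds group means, and leaving out single replicates was not run for the same reason.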
